A study of Mus musculus with 81 samples.

Results

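The genes described here are the protein-coding genes of mouse chromosome 6, taken as a set because the chromosome's median expression lay under that of normal thymus in thymic lymphomas. Members were the coding genes that the GENCODE M21 annotation of build GRCm38 places on chromosome 6, with a mean of at least 1 CPM (counts after scaling each library to the same total) over mice. The table held 1094 coding genes of the chromosome, of which 659 reached that mean. Of these, 23 were omitted by symbol. The rule names the prefixes Trb, Igk, Rp, Nduf, Cox, Psm, Kif and Col, and single genes such as Cd4, Cd8a, Ccnd2 and Bcat1. A further 434 coding genes outside those symbols stayed under the minimum. This left 636 members of 51826 genes in the whole table. Just inside the minimum were Ndnf, 2210010C04Rik and Clec4e at mean CPM of 1.01 each, and just outside were Dyrk4 at 0.983, 4921507P07Rik at 0.963 and Kcna5 at 0.932. The chromosome was chosen by its measured log2 ratio of lymphoma to normal thymus, so every value against normal thymus below is a description. The edgeR calls of that contrast, given as counts of members lower or higher beside the shares of all genes called, restate the choice and support nothing.

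The tissue came from 40 mice of a C57BL/6 x 129S4Sv/Jae cross and was sequenced as 81 RNA libraries of thymus or thymic lymphoma. All animals, controls included, carried Plk4(Col1a1), rtTA(Rosa) and centrin-GFP(Rosa), a doxycycline-inducible system in which Plk4, the kinase that starts centriole duplication, can be switched on. The reference was 8 normal thymuses of untreated p53+/+ mice. The lymphomas were from 10 untreated p53-/- mice, from 9 p53-/- mice given doxycycline for 2 weeks from day 30 of age, and from 12 p53+/- mice given the same doxycycline course. The series states the effect of aneuploidy on tumour development as its question. Frozen tissue was biopsied in bulk, so fewer cells of a type and less RNA per cell cannot be told apart in any value below. Each replicate was a separate mouse, and 13 tumours were sampled in 4 or 5 biopsies whose counts were summed.

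Mouse chromosome 6 carries several clusters of genes that matter in lymphocytes. Between its T-cell receptor beta and immunoglobulin kappa loci lie the Gimap genes, which encode GTPases of the immunity-associated family, known for their role in lymphocyte survival, and the Hoxa cluster of developmental transcription factors. The chromosome also holds Braf, which encodes a kinase of the MAP kinase pathway, and Gapdh, Tpi1 and Ldhb, which encode enzymes of glucose metabolism. Foxm1, a transcription factor of the G2 and M phases, Ncapd2, a condensin subunit, and Ezh2, the methyltransferase of Polycomb repressive complex 2, lie on it too. A chromosome lost from a tumour's cells takes its genes down together, while a local deletion or amplification moves only neighbours. RNA ratios along a chromosome can be read in bins for this purpose, but they also move with the cell types in a biopsy, and DNA copy number was not analysed here.

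Promoter sequence was available for 531 of the 636 members from RefSeq on GRCm38.p6, each as 250 bases before and 50 after the start. The 4 promoters shown are those of a gene at the low end of the ratios (Cidec, chr6:113435711-113436010, minus strand), a gene above normal in every lymphoma (Phb2, chr6:124712039-124712338, plus strand), a mitotic gene (Cdca3, chr6:124829926-124830225, plus strand) and a member of the Gimap cluster (Gimap4, chr6:48684328-48684627, plus strand). Capitals mark matches, on either strand, to CCAAT (the box bound by NF-Y), TATAAA (the TATA box), CGGAAG (a core bound by ETS factors), TTTGAA (the cell cycle homology element) and GCGGGAA (a form of E2F site). None of these 5 motifs contains another.
Cidec promoter: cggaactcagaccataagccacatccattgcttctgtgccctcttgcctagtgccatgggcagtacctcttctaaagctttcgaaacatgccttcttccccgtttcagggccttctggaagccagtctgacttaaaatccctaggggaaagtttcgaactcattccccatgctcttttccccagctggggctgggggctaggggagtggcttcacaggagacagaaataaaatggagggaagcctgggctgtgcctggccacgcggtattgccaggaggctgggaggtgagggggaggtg
Phb2 promoter: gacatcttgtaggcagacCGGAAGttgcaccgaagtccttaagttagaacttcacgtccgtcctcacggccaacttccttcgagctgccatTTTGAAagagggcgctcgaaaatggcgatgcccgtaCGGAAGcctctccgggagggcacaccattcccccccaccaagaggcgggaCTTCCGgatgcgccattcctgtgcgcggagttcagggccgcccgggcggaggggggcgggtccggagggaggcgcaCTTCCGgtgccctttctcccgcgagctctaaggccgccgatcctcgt
Cdca3 promoter: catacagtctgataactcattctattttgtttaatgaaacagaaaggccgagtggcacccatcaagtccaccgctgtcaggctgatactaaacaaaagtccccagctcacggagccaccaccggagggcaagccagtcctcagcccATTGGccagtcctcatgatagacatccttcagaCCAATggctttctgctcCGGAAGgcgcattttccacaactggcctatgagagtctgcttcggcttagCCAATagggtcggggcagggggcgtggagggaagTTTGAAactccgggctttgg
Gimap4 promoter: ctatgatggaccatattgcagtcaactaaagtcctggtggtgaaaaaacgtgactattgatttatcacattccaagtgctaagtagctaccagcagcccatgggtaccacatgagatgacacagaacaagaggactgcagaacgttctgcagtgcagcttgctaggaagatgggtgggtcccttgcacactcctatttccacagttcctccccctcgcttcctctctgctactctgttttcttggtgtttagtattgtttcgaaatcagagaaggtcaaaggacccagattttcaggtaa

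Among the promoters shown, Phb2 held CGGAAG 4 times with a single TTTGAA, Cdca3 held CCAAT 3 times with a single CGGAAG and a single TTTGAA, and Cidec and Gimap4 held none of the 5 motifs in this window. Ordered by mean ratio over the lymphomas, the highest 177 of the 531 members had CGGAAG in 35.03% of promoters, the middle 177 in 29.4% and the lowest 177 in 18.1%, beside 17.2% of all 27025 RefSeq promoters. GCGGGAA stood in 12.4% of the highest, 5.65% of the middle, 3.39% of the lowest and 4.66% of all promoters. The other 3 motifs did not follow the order. In the highest, middle and lowest members CCAAT was found in 37.9%, 29.9% and 35.6% (37.9% of all promoters), TTTGAA in 12.4%, 19.8% and 11.9% (18.1%) and TATAAA in 9.04%, 7.91% and 12.4% (14.2%). The lowest members also had a lower median ratio of observed to expected CpG (0.593 against 0.758) and a lower median expression (mean CPM 9.20 against 41.3). These shares describe the members along an order set by the same ratios, and no test was made on them.

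The level of chromosome 6 in a mouse was the median, over the 636 members, of the log2 ratio to the mean of the normal thymuses, minus the same median over the 14913 autosomal genes at mean CPM of at least 1. The 8 normal thymuses, each set against the other 7, had levels from -0.06 to 0.07 (mean -0.01 ± 0.04, SD). Untreated p53-/- lymphomas had levels of -0.37 at the lowest, -0.22 at the median and -0.08 at the highest (mean -0.22 ± 0.09, SD, n = 10). Treated p53-/- lymphomas had -0.42, -0.30 and -0.15 (mean -0.31 ± 0.08, SD, n = 9). Treated p53+/- lymphomas had -0.56, -0.31 and -0.06 (mean -0.32 ± 0.13, SD, n = 12). The lowest level of all was that of treated p53+/- mouse 266, followed by mouse 280 at -0.50 and mouse 309 at -0.44, both of the same group. All 31 lymphomas lay under every normal thymus, as the choice of the chromosome states, but treated p53+/- mouse 862 did so at -0.06 by a margin under the last printed digit and untreated p53-/- mouse 202 lay at -0.08. That separation depends on the centring and on the filter. With TMM factors and no centring 24 lymphomas lay below every normal thymus and 2 above every one (normal thymuses -0.09 to 0.07, lymphomas up to 0.11 in untreated p53-/- and 0.22 in treated p53+/-). With no filter on low counts 25 lay below, and under the other alternatives 29 to 31.

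**Figure D1:**
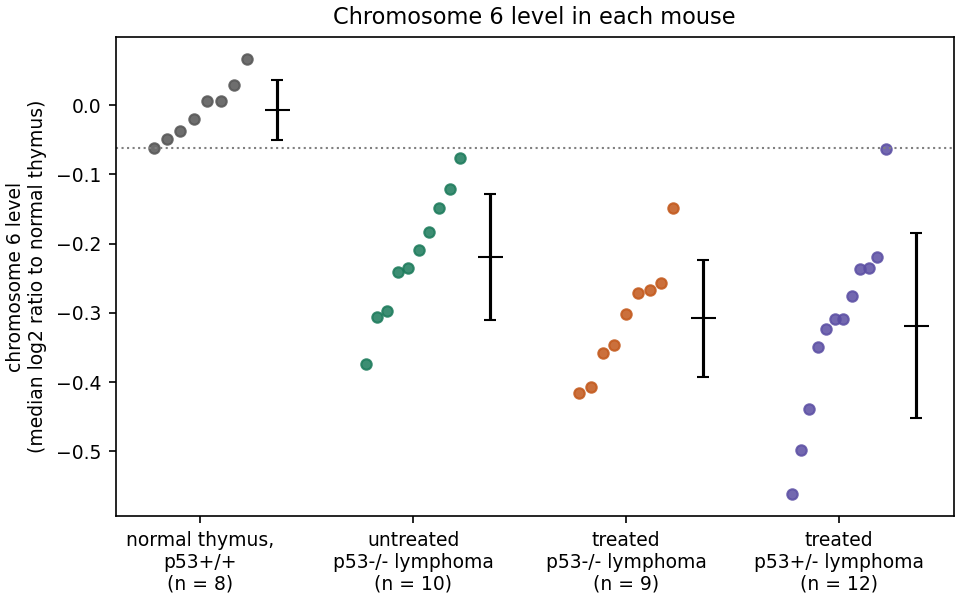
Chromosome 6 level of each mouse (median log2 ratio of the 636 members to normal thymus, centred on the median autosomal gene) by group; points are mice and the marked line and bar are the group mean and SD. The normal thymuses lie between -0.06 and 0.07 and the 31 lymphomas between -0.56 and -0.06.

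The lowering was a shift of the middle of a wide distribution rather than a fall of each gene. Over the 31 lymphomas, the mean ratio of single members had a median of -0.29 with quartiles of -1.17 and 0.30, and 394 of the 636 members (61.9%) had a mean below 0. Among 12367 coding genes of the other autosomes, the median was -0.03 and 51.01% were below 0. In single mice, the share of members below 0 averaged 51.5% in normal thymuses and 58.03%, 60.9% and 61.5% in the lymphoma groups, taken in the order untreated p53-/-, treated p53-/-, treated p53+/- here and wherever a value is given for each of the 3 lymphoma groups without their names.

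Ratios depended strongly on how much a gene was expressed. The classes used mean CPM over all mice, so a gene low in lymphomas falls more easily in a low class. Part of the course below is thus set by the split. The 126 members at mean CPM of 1 to 5 had median ratios of -1.28, -1.38 and -1.42 in the lymphoma groups, and the 181 members at 50 CPM or more had 0.15, 0.06 and 0.07. Coding genes of the other autosomes followed the same course, from -0.99, -1.10 and -1.16 in the lowest class to 0.30, 0.35 and 0.37 in the highest. Members minus other genes was negative in each class of expression and each group, from -0.14 to -0.29. Members lay below the other genes in 29, 31, 29 and 29 of the 31 lymphomas, from the lowest class to the highest. With members centred on other autosomal coding genes of like expression in 20 classes, a choice made after seeing the data, the mean levels were -0.18, -0.27 and -0.29, and 29 of 31 lymphomas lay below every normal thymus. The exceptions were mice 202 and 862.

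**Figure D2:**
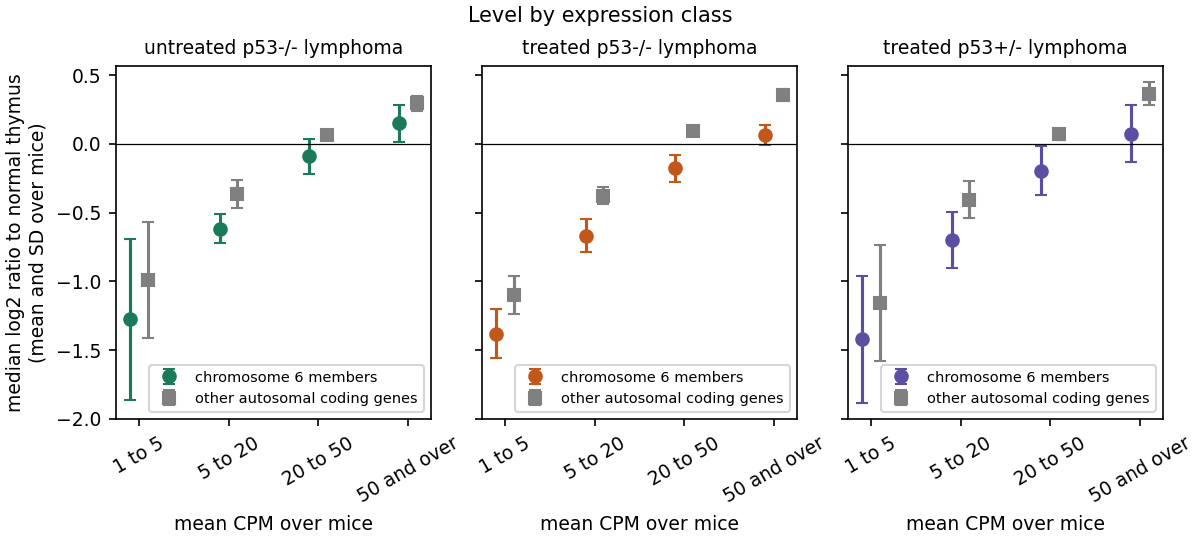
Median log2 ratio to normal thymus of chromosome 6 members and of other autosomal coding genes in 4 classes of mean CPM; points are means over the mice of a lymphoma group and bars the SD. Both sets rise with expression, and the members lie below the other genes in at least 29 of the 31 lymphomas in each class.

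Chromosome 6 was not alone in lying low. Chromosome 7 had mean levels of -0.28, -0.37 and -0.29 in the 3 lymphoma groups and lay below every normal thymus in all 31 lymphomas, and chromosome 19 had -0.18, -0.34 and -0.32 and did so in 28. Chromosome 6 was the lowest of the 19 autosomes in 6 lymphomas and among the lowest 3 in 21, while chromosome 7 was the lowest in 15. The spread of the level over the 31 lymphomas was smaller for chromosome 6 (SD 0.11) than for any other autosome, with chromosome 7 next at 0.12 and the others at 0.13 to 0.27. With centring by expression class that order turned, to 0.121 for chromosome 6 and 0.117 for chromosome 7.

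Along the chromosome, members were grouped in 15 bins of 10 Mb by gene start, and a bin was counted as low in a lymphoma when its median ratio lay under that of every normal thymus. The lowest bins over the 31 lymphomas were those starting at 40 Mb (mean -0.72, 53 members, low in 26 lymphomas) and at 50 Mb (mean -0.70, 48 members, low in 29). The proximal bins starting at 0 and 10 Mb each had a mean of -0.62 and were low in 29 and 28 lymphomas. Those at 30 Mb (mean -0.09, 49 members) and 80 Mb (mean -0.08, 84 members) lay closest to 0 and were low in 18 and 17. The bin at 70 Mb was low in 30 of 31, with a mean of -0.39 and a highest lymphoma of -0.13. With centring by expression class, the bin at 60 Mb, whose 14 members had the lowest median CPM of any bin (6.12), moved from a mean of -0.56 to 0.09 and was low in 1 lymphoma instead of 19. The means of the other 14 bins stayed below 0 under that centring, from -0.10 to -0.53. Their counts of low lymphomas moved both ways, from 26 to 18 in the bin at 40 Mb and from 21 to 25 in that at 100 Mb.

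**Figure D3:**
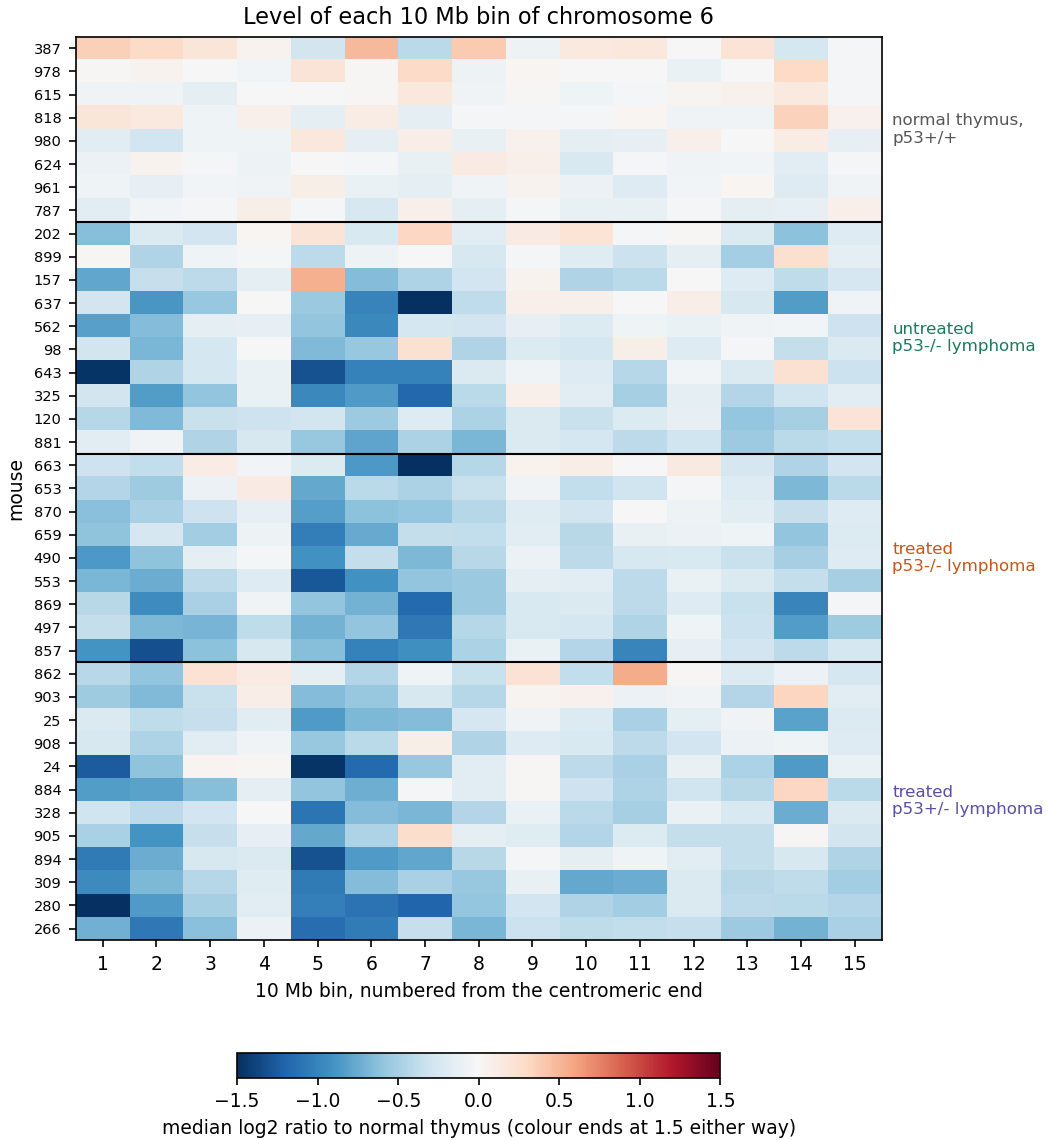
Median log2 ratio to normal thymus in each of the 15 bins of 10 Mb (x axis, numbered from the centromeric end) for each mouse, in colour, with mice in rows by group. Over the lymphomas, bins 5 and 6 (from 40 and 50 Mb) are the lowest on average (-0.72 and -0.70) and bins 4 and 9 (from 30 and 80 Mb) the closest to 0 (-0.09 and -0.08).

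A lymphoma was described as having a fall along the whole chromosome when at least 12 of the 15 bins were low. That held in 17 of 31 lymphomas, namely 4 of the 10 untreated ones, 6 of the 9 treated p53-/- and 7 of the 12 treated p53+/- ones. In the remaining 14 the fall was patchy, with 6 to 11 low bins. Treated p53-/- mouse 857 and treated p53+/- mice 280 and 309 were low in all 15 bins. The count rests on the reading grid. It was 1 of 31 with 5 Mb bins (22 usable bins), 22 with 20 Mb bins, 8 with TMM factors and no centring, and 15 with centring by expression class, of which 12 were among the 17.

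Each lymphoma was then set against the median lymphoma, which removes the normal thymuses from the comparison. Mouse 266 lay at -0.27 with 14 of 15 bins below the median lymphoma, mouse 280 at -0.20 with 14 and mouse 309 at -0.14 with 13. These 3 treated p53+/- tumours, each sampled as 1 library, were thus lower than the median tumour along nearly the whole chromosome. On the other side, untreated p53-/- mice 202 (0.24) and 899 (0.14) had 0 of 15 bins below it, and treated p53+/- mouse 862 (0.22) had 1. Smaller departures also ran along much of the chromosome. Treated p53-/- mice 553 (-0.08), 497 (-0.07) and 869 (-0.06) had 14, 13 and 11 bins below the median lymphoma, and treated p53+/- mouse 905 (-0.08) had 12. Treated p53-/- mouse 663 (0.09) and treated p53+/- mouse 903 (0.12) had 2. The remaining 19 lymphomas had 4 to 10 bins below it. In single bins, mouse 157 stood at 1.03 in the bin at 40 Mb, and mice 637 and 663 at -1.14 and -0.83 in the sparse bin at 60 Mb.

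To ask whether the ends of the chromosome moved together from tumour to tumour, the 318 proximal members (starts 3372257 to 86647042) were compared with the 318 distal members (86675151 to 149408886). Over the 31 lymphomas the levels of the proximal and distal members correlated with Pearson r = 0.72 and Spearman's rank correlation of 0.72 (permutation p = 1e-05 each, the smallest the resampling can give, adjusted 4e-05 over 4 relations). Without the 2 mice farthest from the median, r was 0.67. Within groups, r was 0.91 in treated p53+/- (n = 12, permutation p = 5e-05, adjusted 1e-04), 0.71 in treated p53-/- (n = 9, exact permutation p = 0.00925, adjusted 0.0123) and 0.38 in untreated p53-/- lymphomas (n = 10, permutation p = 0.268). Without the 2 farthest mice these were 0.79, 0.72 and 0.35, and Spearman's rank correlation was 0.85, 0.62 and 0.47 (adjusted permutation p = 0.00172, 0.114 and 0.178). Proximal and distal values of a mouse share a library and its centring. Computed the same way, r was 0.74 to 0.93 on the other autosomes, so the value of chromosome 6 was the lowest of the 19. With centring by expression class it was 0.761, and chromosomes 19, 7, 2 and 16 lay lower, at 0.723 to 0.758.

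**Figure D4:**
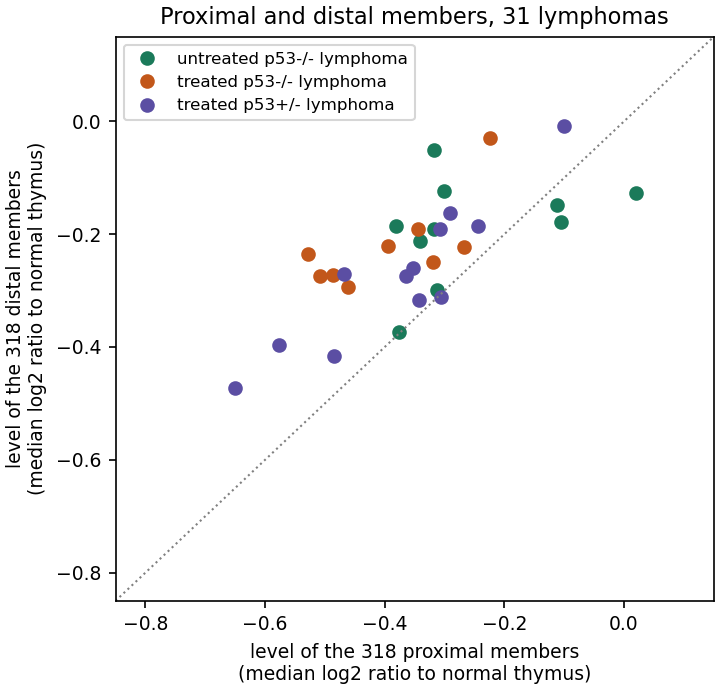
Level of the 318 proximal members (x axis) against that of the 318 distal members (y axis), each the median log2 ratio to normal thymus, with 1 point per lymphoma, colour by group and a dotted line of equality. Mice 266 and 280 lie at the low end and mice 202 and 862 at the high end, with r = 0.72 over 31 lymphomas.

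Between lymphoma groups, a comparison the choice of members did not use, no contrast of the level passed an adjusted p of 0.05 with the centring used here. Treated p53-/- minus untreated p53-/- was -0.09 (SE 0.04, two-sided exact permutation p = 0.0437, adjusted 0.0919 over 3 contrasts), with 2 of 9 treated lymphomas below every untreated one. Treated p53+/- minus untreated p53-/- was -0.10 (SE 0.05, exact permutation p = 0.0613, adjusted 0.0919), with 3 of 12 below every untreated one and 1, mouse 862, above every one. Treated p53+/- minus treated p53-/- was -0.01 (SE 0.05, exact permutation p = 0.841). The first contrast passed an adjusted p of 0.05 without untreated mouse 881 (-0.11, adjusted exact permutation p = 0.0453) or without treated mouse 663 (-0.11, 0.0376), and the second without mouse 881 (-0.12, 0.0468) or mouse 862 (-0.12, 0.0382). With uncentred DESeq2 size factors both passed (-0.12, adjusted exact permutation p = 0.0344, and -0.13, 0.0390), and with uncentred TMM values neither did (0.146 and 0.337). In labelled males only (9, 4 and 3 mice), the first was -0.11 (adjusted exact permutation p = 0.310) and the second -0.0429 (0.477). Mouse 881 was the tumour with few T lineage and many B lineage transcripts (summed CPM of 325 over 8 T markers and 3003 over 6 B markers, against medians of 3233 and 26.3 in its group). None of 45 tests of single bins passed (smallest adjusted p = 0.499, exact permutation, with 0, 1 and 2 bins at an unadjusted p under 0.05 in the 3 contrasts).

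Gene by gene, edgeR's quasi-likelihood test called 0 of 621 tested members in each of the 3 contrasts between lymphoma groups, beside 0.0% of all 16389 genes tested. DESeq2 called 2 members, both lower in treated than in untreated p53-/- tumours, beside 0.488% of the 15364 genes to which it gave an adjusted p in that contrast. It called 0 members in the other contrasts, beside 0.0736% of all genes between the treated groups and 0.0184% between treated p53+/- and untreated tumours. With an unadjusted p below 0.05, 82 members (78 lower) differed by treatment within p53-/-, 45 (41 lower) between treated p53+/- and untreated tumours, and 23 (10 lower) between the treated groups. Over all genes tested the shares at that p were 11.7%, 6.34% and 5.27%, and the shares lower 7.89%, 3.9% and 1.93%.

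The smallest p among members belonged to Ptpn6, the phosphatase SHP-1 that restrains antigen receptor signalling (chr6:124720707-124738714). Its log2 CPM was 6.57, 7.49 and 8.38 (lowest, median, highest) in untreated p53-/-, 6.20, 6.60 and 7.54 in treated p53-/- and 6.33, 7.02 and 7.44 in treated p53+/- lymphomas, beside 7.23, 7.56 and 7.81 in normal thymus. Treated against untreated p53-/- the log2 fold change was -0.98 (SE 0.22, edgeR adjusted p = 0.181; DESeq2 -0.95, SE 0.23, adjusted p = 0.0185), with overlapping groups. Nup210, a nuclear pore membrane protein (chr6:91013068-91116829), had 6.99, 8.13 and 8.90 in untreated and 6.84, 7.63 and 7.83 in treated p53-/- lymphomas. Its difference was -0.78 (SE 0.20, edgeR adjusted p = 0.220; DESeq2 -0.76, SE 0.20, adjusted p = 0.0317). For Cav2, Dusp16 and Parp12, the other members with the smallest p in a contrast, edgeR adjusted p-values were 0.934, 0.934 and 0.776.

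Against normal thymus, edgeR at an adjusted p under 0.05 placed 159 of 636 members lower and 126 higher in untreated p53-/- lymphomas, where 17.5% and 23.2% of all 17843 genes tested were lower and higher. In treated p53-/- lymphomas 244 members were lower and 110 higher, beside 26.6% and 25.4% of all genes. In treated p53+/- lymphomas 242 were lower and 105 higher, beside 25.3% and 25.6%. These counts restate the contrast that chose the chromosome, and nothing is read from them. Without normal mouse 387 the members lower were 126, 190 and 184 and those higher 142, 123 and 114. Of all 18044 genes tested in that fit, 14.4%, 20.8% and 18.4% were lower and 25.9%, 27.8% and 27.6% higher. In untreated p53-/- lymphomas more members were then higher than lower, as was so over all genes with and without the thymus of mouse 387. That thymus had a summed CPM of 677 for T markers, 7916 for 6 fat markers and 1072 for B markers, against group medians of 4867, 2254 and 116.

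Values for every mouse separated completely for a small part of the members. In 26 members each lymphoma lay below each normal thymus, beside 2.61% of autosomal genes and 2.86% of autosomal coding genes at the same minimum, and in 12 each lymphoma lay above, beside 4.16% and 4.45%. The 26 included Cxcl12, Met, Pon1, Aqp1, Mgll, Klf15, Cyp26b1 and Gabarapl1. The 12 were Nup205, Zc3hav1l, Gars, Serbp1, Smyd5, Cct7, Tprkb, Ruvbl1, Shq1, Tamm41, Phb2 and Nop2.

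The 6 lowest mean edgeR log2 fold changes against normal thymus among members at mean CPM of at least 10 were those of Cidec, Pdk4, Fam13a, Scnn1a, Aldh1l1 and Mgst1. That mean was taken over all mice, so a gene high only in normal thymus can pass it through that group. Its place at the low end is then partly set by the filter, and the same holds at the high end for genes high only in lymphomas. Cidec, a lipid droplet protein of adipocytes (chr6:113424634-113435760), had log2 CPM of 5.56 to 10.09 in normal thymuses and -3.86 to 4.19 in lymphomas, where -3.86 is the value given to a count of 0. Its mean ratio was -7.31. Pdk4, the kinase that switches off pyruvate dehydrogenase (chr6:5483351-5496309), had 6.20 to 8.64 in normal and -0.82 to 4.70 in lymphomas, a mean ratio of -5.77. Mean ratios were -5.40 for Fam13a, -4.40 for Aldh1l1 of folate metabolism, -3.45 for Mgst1, a microsomal glutathione transferase, and -4.49 for Scnn1a, an epithelial sodium channel subunit. All but Scnn1a (30 of 31) lay below every normal thymus in 31 lymphomas. Summed CPM of 5 fat markers from other chromosomes was 839 to 7830 in normal thymus and 30.3 to 188 in the lymphomas, and that of 7 thymic epithelial markers 114 to 2634 and 9.94 to 350, with no marker at 0 in all mice of a group. The epithelial value of 114 was that of mouse 387, and the other 7 normal thymuses had 1379.8 to 2634. The p53+/- normal thymus of mouse 819, which is not in the reference, had an epithelial sum of 2043 and a sum over all 6 fat markers of 125, within the range of the lymphomas. The part of these cells in the low ratios was not tested. Without the 18 listed vessel, stroma and fat members, Gpnmb among them, the mean levels of the groups were -0.20, -0.29 and -0.29.

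The 6 highest mean fold changes by the same measure were those of Igf2bp3, Gpnmb, Reep1, Scrn1, Plekha8 and Slc23a4. Igf2bp3, an RNA-binding protein expressed mainly before birth (chr6:49085223-49214957), had log2 CPM of -0.64 to 1.56 in normal thymuses, -0.26, 5.31 and 6.58 (lowest, median, highest) in untreated p53-/-, -3.86, 4.15 and 5.56 in treated p53-/- and 0.15, 5.81 and 7.08 in treated p53+/- lymphomas. It was higher than the highest normal thymus in 26 of 31, and it overlaps Malsu1, so the authors' counting could share reads between them. Gpnmb, a glycoprotein of macrophages and melanocytes (chr6:49036546-49070929), had 0.83 to 3.91 in normal thymuses and was above all of them in 29 lymphomas, with a mean ratio of 2.93. Reep1, an endoplasmic reticulum shaping protein, had a mean ratio of 2.72 and was above in 28. Scrn1 ranged from -3.86 to 7.72 among lymphomas and was above every normal thymus in 16.

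All 8 listed Gimap genes were members and all had mean ratios below 0 (median -1.70, from -3.61 to -0.26), with 3, 6 and 4 of them lower against normal thymus in the 3 lymphoma groups and 0 higher, beside 17.5%, 26.6% and 25.3% of all genes lower and 23.2%, 25.4% and 25.6% higher. The medians of their log2 fold changes were -0.69, -1.86 and -1.49, beside 0.08, -0.04 and -0.00 over all genes tested. Gimap6 (chr6:48701582-48708225) had log2 CPM of 7.16, 8.06 and 8.61 in normal thymus, 4.57, 6.07 and 8.71 in untreated p53-/-, 3.27, 5.63 and 6.27 in treated p53-/- and 4.45, 6.23 and 7.22 in treated p53+/- lymphomas. It lay below every normal thymus in 28 of 31 lymphomas. Gimap4 had 5.25, 6.58 and 7.69 in normal thymus and ran from 2.56 to 10.13 among lymphomas. The cluster set apart a pair of tumours at opposite ends. In mouse 202, 6 of the 7 Gimap members at mean CPM of at least 10 were the highest of 31. For this, each tumour's median deviation over autosomal coding genes was removed, and the level of chromosome 6 was not. Gimap4 stood at 10.13 and Gimap3 at 8.66 (medians of the other lymphomas 4.53 and 2.45). In mouse 862, 5 of the same 7 were the lowest, with Gimap3 at -1.80.

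Most listed genes of lymphocyte receptors and signalling had ratios below 0. Of 21 listed, 20 were members and 18 had a mean ratio below 0 (median -1.27), with 12, 15 and 15 lower and 1 higher in each of the 3 groups against normal thymus, beside 17.5%, 26.6% and 25.3% of all genes lower and 23.2%, 25.4% and 25.6% higher. Tgfa among them had a mean under 1 CPM over the lymphomas, so it became a member through the normal thymuses and had to lie lower. Arhgdib, a GDP dissociation inhibitor of small GTPases that is abundant in blood cells (chr6:136923655-136941899), had log2 CPM of 8.25, 9.23 and 9.50 in normal thymus and 7.89, 8.63 and 9.31 in untreated p53-/-, 7.40, 7.83 and 8.61 in treated p53-/- and 7.72, 8.55 and 9.32 in treated p53+/- lymphomas. Cd27, a co-stimulatory receptor of the TNF family, had a median of 8.04 in normal thymus and 7.62, 7.14 and 7.35 in the lymphoma groups. It lay outside its group in mouse 881 at -0.15, and it overlaps Vamp1. Summed CPM of the 6 B lineage markers had medians of 116 in normal thymus and 26.3, 15.3 and 24.4 in the lymphoma groups, with 5, 6 and 6 of the 6 at a group median under the lowest normal thymus. Of the 8 T lineage markers 0, 1 and 0 were. The part of these cells in the list's ratios was not tested.

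Vessel, stroma and fat genes of the chromosome were mostly low too, and 15 of 18 had a mean ratio below 0 (median -1.91), with 11, 13 and 12 lower and 1 higher in each group, beside 17.5%, 26.6% and 25.3% of all genes lower and 23.2%, 25.4% and 25.6% higher. The list also holds Gpnmb, described above as a glycoprotein of macrophages and melanocytes, at 2.93. Ptn and Timp4 had a mean under 1 CPM over the lymphomas, so they became members through the normal thymuses and had to lie lower. Cxcl12, the chemokine of stromal cells that attracts thymocyte progenitors (chr6:117168535-117181367), had log2 CPM of 7.09 to 8.28 in normal thymuses and 2.25 to 6.18 in lymphomas, below in 31 of 31. Adipor2, an adiponectin receptor, had a mean ratio of -1.03, -1.17 and -1.22 in the 3 groups. Summed CPM of 7 vessel and fibroblast markers had medians of 432 in normal thymus and 239, 274 and 287 in the lymphoma groups, with overlapping ranges. Of the 7 markers, 5, 3 and 4 had a group median under the lowest normal thymus, and 0, 1 and 1 had it above the highest. The part of vessel and fibroblast cells in the list's ratios was not tested. The 4 Hoxa members (Hoxa3, Hoxa4, Hoxa5 and Hoxa7) had mean CPM of 1.22 to 1.76. In 3 of them, Hoxa3, Hoxa5 and Hoxa7, the mean over the lymphomas alone was under the minimum of 1 CPM, so they became members through the normal thymuses and had to lie lower in lymphomas. Over all members, 36 of 636 had a mean under that minimum in the lymphomas and 14 in the normal thymuses. Hoxa3 lay at 1.39 to 2.60 in normal thymus and at -3.86 to -0.12 in lymphomas. Hoxa3 overlaps Hoxa4 and Hoxa5 on the same strand, so the counts of these genes are uncertain one by one. Of 11 listed Hoxa genes, 7 were no members.

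Genes of cell division on the same chromosome lay mostly above normal thymus. Of 16 genes of mitosis, replication and DNA repair, 11 had a mean ratio above 0 (median 0.82), with 10, 11 and 11 higher and 2, 2 and 3 lower, beside 23.2%, 25.4% and 25.6% of all genes higher and 17.5%, 26.6% and 25.3% of all genes lower. Ncapd2 (chr6:125168007-125191701) had log2 CPM of 5.28, 7.15 and 7.77 in normal thymus and 7.83, 8.23 and 8.61 in untreated p53-/-, 7.21, 7.90 and 8.74 in treated p53-/- and 7.87, 8.15 and 8.81 in treated p53+/- lymphomas, above every normal thymus in 28 of 31. Foxm1 (chr6:128362967-128376146) had 3.91, 6.03 and 6.72 in normal thymus and medians of 7.02, 7.01 and 7.11 in the lymphoma groups, above in 26. Mad2l1, the spindle checkpoint protein, had mean ratios of 0.95, 1.02 and 1.12, and Cdca3, a mitotic entry factor, 0.90, 1.02 and 1.21. Parp12, an interferon-inducible ADP-ribosyltransferase on the list, had mean ratios of -1.42, -1.12 and -0.25.

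Of the 15 genes of glycolysis and carbon metabolism, 10 had a mean ratio above 0 (median 0.38), with 6, 7 and 6 higher and 2, 3 and 4 lower, beside 23.2%, 25.4% and 25.6% of all genes higher and 17.5%, 26.6% and 25.3% of all genes lower. Members of the list differed in direction. It also holds Phb2, a prohibitin, Mgst1, a glutathione transferase, and Mat2a and Far2, so its counts are not of glycolysis alone. Tpi1, triosephosphate isomerase (chr6:124810586-124814296), had log2 CPM of 6.22, 7.02 and 7.93 in normal thymus and medians of 8.96, 9.07 and 8.79 in the lymphoma groups, above every normal thymus in 30 of 31. Ldhb, the heart form of lactate dehydrogenase (chr6:142490249-142507957), had 8.17, 8.93 and 9.31 in normal thymus and 2.82, 7.84 and 9.14 in untreated p53-/- lymphomas, with mean ratios of -2.36, -0.56 and -1.34. Phb2, the mitochondrial prohibitin whose promoter is printed above (chr6:124712336-124716950), had 6.61 to 7.30 in normal thymus and 7.45 to 8.48 in the lymphomas, which did not overlap.

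RNA-binding and translation genes had 10 of 15 mean ratios above 0 (median 0.25), with 4, 4 and 4 higher and 2, 3 and 3 lower. Of all genes 23.2%, 25.4% and 25.6% were higher and 17.5%, 26.6% and 25.3% lower, so the counts of this list lay near those of all genes. Hnrnpa2b1, a splicing factor (chr6:51460932-51469894), had log2 CPM of 9.37, 10.17 and 10.48 in normal thymus and medians of 10.29, 10.38 and 10.43 in the lymphoma groups, with overlapping ranges. Cnbp, a nucleic acid binding zinc finger protein (chr6:87842615-87851106), had 7.97 to 8.68 in normal thymus and lay above it in 29 of 31 lymphomas. Serbp1, an mRNA-binding protein (chr6:67238176-67297736), had 8.05 to 8.93 in normal thymus and 9.02 to 10.56 in lymphomas, above in 31 of 31. The list also holds Sec61a1, Copg1, Copg2 and Tax1bp1. Tax1bp1, an adaptor of autophagy and NF-kB signalling, had mean ratios of -0.37, -0.54 and -0.52.

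Chromatin and transcription regulators were divided, with 10 of 21 below 0 and a median of 0.04. Of these members, 4, 3 and 2 were higher and 3, 8 and 6 lower, beside 23.2%, 25.4% and 25.6% of all genes higher and 17.5%, 26.6% and 25.3% of all genes lower. Gata2 on the list had a mean under 1 CPM over the lymphomas, so it became a member through the normal thymuses and had to lie lower. Ezh2 (chr6:47530139-47595341) had log2 CPM of 5.20, 7.24 and 7.46 in normal thymus and medians of 7.77, 7.78 and 7.64 in the lymphoma groups, above every normal thymus in 23. Chd4, the NuRD remodeller, had mean ratios of 0.32, 0.15 and 0.15, and Cbx3, the HP1 gamma protein, 0.62, 0.80 and 0.72. Setd5 had 0.55, 0.12 and 0.15.

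Braf, a kinase that activates the MAP kinase pathway (chr6:39603237-39725463) had log2 CPM of 4.81, 5.23 and 5.49 in normal thymus, 4.47, 4.804 and 5.22 in untreated p53-/-, 3.59, 4.50 and 4.82 in treated p53-/- and 2.64, 4.56 and 5.27 in treated p53+/- lymphomas, and lay below every normal thymus in 24 of 31. Braf overlaps Ndufb2, and their counts can share reads.

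A block of neighbouring members near the distal end stood out in untreated p53-/- mouse 120, sampled as 1 library of 13500000 counts. Between Lrmp and Med21, 10 of the 11 members reported were higher in mouse 120 than in each of the other 30 lymphomas. The difference of the 11 from the median of the others ran from 2.00 to 5.65 on the log2 scale, with a median of 4.05. Lrmp, an endoplasmic reticulum protein of lymphocytes, stood at 11.996 (others 6.16 to 10.31) and Bhlhe41, a transcriptional repressor, at 7.02 (-0.52 to 4.205).

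The block went on distally through Itpr2, an inositol trisphosphate receptor (10.19, median of the others 8.02), Ints13, an Integrator subunit (10.91, 6.86), Fgfr1op2 (11.65, 7.49), Tm7sf3 (8.09, 4.40) and Med21, a Mediator subunit (9.01, 4.71). Rassf8 was the exception at 4.93, under a highest other lymphoma of 5.25. Bcat1, which the member rule omits and which lies just proximal of Lrmp, stood at 9.85 (median of the others 5.64). Outside the block, levels lay within the range of the other tumours, proximally with Sox5 at -0.35 (median of the others 0.40) and Etnk1 at 6.94 (7.39), and distally Stk38l at 3.51 (3.52) and Mrps35 at 5.18 (5.12). The 11 members took 1.20% of all counts in mouse 120 and 0.0365% to 0.164% in the other lymphomas. The level of chromosome 6 in this mouse was -0.31 with and without the block. The run was found by looking through the data, rests on 1 library of 1 mouse, and has no replicate check.

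The block came from a search of windows of 6 neighbouring members at mean CPM of at least 10 in which 1 lymphoma was the highest or the lowest of 31 for at least 4, which found 11 runs on chromosome 6 in 7 mice, 8 of them higher, among 440 members. On other autosomes it found 5 to 31. The search was chosen after seeing the data. It removed each tumour's median deviation over autosomal coding genes, not its level of chromosome 6. In untreated p53-/- mouse 157 a run of 10 members from Zfp398 to Repin1 (chr6:47835661-48599082), a cluster of zinc finger genes, lay higher with a median deviation of 1.26. Zfp282 stood there at log2 CPM 6.71, against 3.42 to 5.82 in the other lymphomas. In mouse 562, of the same group, Phb2, Ptpn6 and Atn1 were each the highest of 31, with Atn1 at 7.08 against 2.65 to 5.67. Mice 157 and 562 were each sampled as 1 library.

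Runs in the lower direction were seen in treated p53+/- mice 266 and 280, each sampled as 1 library, and in mouse 862. Mice 266 and 280 had the lowest levels of chromosome 6. The search did not remove that level, so tumours low along the chromosome were favoured in it. In mouse 280, Podxl2, Plxna1, Chchd6 and Txnrd3 (chr6:88842558-89675529, median deviation of the run -2.67) lay below all other lymphomas, with Chchd6, a mitochondrial cristae protein, at 0.72 against 3.11 to 5.33. In mouse 266, Brk1, Vhl, Tatdn2 and Sec13 (within chr6:113442569-113740743, median deviation -0.71) lay below all others. Vhl, the von Hippel-Lindau tumour suppressor, was at 4.06 there against 4.63 to 5.59.

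Biopsies of a tumour resembled each other more than tumours resembled each other. In the 13 tumours with 4 or 5 biopsies, the pooled SD of the chromosome 6 level within a tumour was 0.0412 over 54 biopsies, and the SD of the tumour means was 0.112. Of the 54 biopsies, 50 lay below every normal thymus, with the exceptions in mice 202 (2 of 4 below) and 862 (3 of 5). The range within a tumour had a median of 0.0713 and ran from 0.0308 in mouse 899 to 0.171 in mouse 884. In 12 of the 13 tumours the SD of chromosome 6 over biopsies was smaller than that of the median other autosome. Mouse 884, the exception, and mouse 857 included the shallowest biopsies, of about 3810000 and 1030000 counts. Biopsies share a mouse and were not treated as replicates.

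Several facts of the series bear on these values. Library depth was about 1030000 to 26900000 counts, and 5010000 to 98600000 per mouse. Labelled males were 9 of 10, 4 of 9 and 3 of 12 mice in the lymphoma groups, so sex and group partly run together. Trp53 had mean log2 CPM of 6.60 ± 0.24 in normal thymus (SD, n = 8), and 5.56 ± 0.83, 5.42 ± 0.44 and 5.29 ± 0.50 in the lymphoma groups (n = 10, 9 and 12), and counts per gene do not say which exons were read. T lineage markers summed to medians of 4867 CPM in normal thymus and 3233, 3794 and 3588 in the lymphoma groups. The labels name no sequencing batch. The labels mark the p53+/- normal thymus as a single animal, mouse 819, and its chromosome 6 level was -0.00.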

How the data were processed

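RNA sequencing of 81 libraries from 40 mice was analysed. The authors deposited 1 table of expected counts per gene (estimated counts, 14.3% of cells not whole) with 51826 genes. The submitters' processing notes name CASAVA 1.8, fastp, STAR 2.7.2b, RSEM 1.1.17 and build mm10, with no role or order, and the strandedness is not given in the sources used here. Gene positions and types came from GENCODE M21 (GRCm38), which held 51633 of the gene IDs.

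Expected counts were rounded to whole numbers and biopsies summed per mouse. Genes were compared with edgeR 4.0.16 under R 4.3.3 (TMM factors, filterByExpr, robust quasi-likelihood fits, labelled sex as covariate), with Benjamini-Hochberg adjustment over all genes tested and a threshold of 0.05. One fit held normal thymuses and lymphomas, and the other only lymphomas. DESeq2 1.42.0 was an alternative. Log2 CPM used TMM factors and a prior count of 2. Levels between lymphoma groups were compared by two-sided exact permutation of mice, and correlations by permutation (100000 resamples, or exact for 9 mice). Per-gene and level steps were tested on simulated data. P-values measure the spread between mice. A ratio on this scale understates the change of genes with few counts.

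The members, the gene lists and the tests were chosen with earlier results of these data known. Genes named are the member with the highest mean CPM in each bin, the 6 lowest and 6 highest mean fold changes against normal thymus at a mean CPM of at least 10, the 2 smallest p-values of each contrast between lymphoma groups, and the 4 highest mean CPM of each of 9 lists. Members of the local runs and those separating completely from normal thymus were named after their values were seen. Alternatives concerned scaling, centring, the CPM minimum, bin size, left-out mice and libraries, sex, and the test. Some members and 1 of the lists are not reported here.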

Additional observations from a re-analysis of the deposited data

Results flagged for a closer look

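Within the groups of 8, 9 and 10 mice, 219 sets of values (the chromosome 6 level, its bins and the named members reported) were searched for a mouse whose gap to its nearest neighbour was large for the group's range by Dixon's criterion. Chance alone gives about 5%, and 25 were found, in 8 mice.

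In normal mouse 387, which gave 12 of the 25, log2 CPM was low for Gm45062 (6.25, others 7.86 to 8.94), Rmnd5a (7.59, others 9.05 to 9.79), Nup210 (6.44, others 7.02 to 7.54), Arhgdib (8.25, others 9.003 to 9.50), Gimap9 (5.40, others 6.71 to 6.96), Cd27 (5.58, others 7.88 to 8.41) and Emg1 (5.99, others 6.95 to 7.68). It was high there for Calu (7.87, others 6.92 to 7.26), Scrn1 (3.10, others -0.54 to 0.71), Plekha8 (3.70, others 1.92 to 2.34) and Fbln2 (7.66, others 4.03 to 5.11). Its level in bin 3 was 0.18 (others -0.14 to 0.01). Normal mouse 978 was low for Phb2 (6.61, others 6.97 to 7.30) and Hoxa7 (-0.34, others 2.27 to 3.13).

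Among untreated p53-/- lymphomas, mouse 120 was low for Chd4 (8.37, others 8.89 to 9.39). Mouse 881, the tumour with few T and many B lineage transcripts, was low for Cd27 (-0.15, others 6.75 to 7.90) and Mkrn2 (5.14, others 5.90 to 6.43).

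Among treated p53-/- lymphomas, mouse 857 was low in bin 11 (-0.99, others -0.45 to 0.01) and in log2 CPM of Cidec (-3.86, a count of 0, others -0.70 to 2.15), Foxm1 (6.50, others 6.93 to 7.30) and Adipor2 (5.95, others 6.46 to 6.76). Mouse 663 was high in bin 10 (0.10, others -0.44 to -0.17) and low for Lrmp (6.16, others 7.21 to 7.87). Gimap9 was low in mouse 490 (5.41, others 6.12 to 6.77), and Rmnd5a in mouse 653 (7.86, others 9.04 to 9.75).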

How the results depend on the processing

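Group levels of chromosome 6 stayed below 0 under the alternatives tried, from -0.48 to -0.13 in untreated p53-/-, -0.54 to -0.23 in treated p53-/- and -0.57 to -0.22 in treated p53+/- lymphomas; the lowest of each (-0.48, -0.54 and -0.57) came from a mean over members in place of the median. Uncentred DESeq2 size factors brought treated minus untreated p53-/- to -0.12 (adjusted exact permutation p = 0.0344) and treated p53+/- minus untreated to -0.13 (adjusted 0.0390). Apart from left-out mice, neither passed under the other alternatives. The first was smallest with a mean over members (-0.0564, adjusted 0.498) and the second in labelled males only (-0.0429, adjusted 0.477). Treated p53+/- minus treated p53-/- changed sign with no centring of TMM values (0.0355; -0.00682 with uncentred DESeq2 size factors), no filter on low counts (0.00988) and labelled males only (0.0692), and none of these passed. The cause was not tested. Leaving out each lymphoma in turn, an alternative added after seeing the data, gave -0.11 to -0.0728 for treated minus untreated p53-/-, -0.12 to -0.0770 for treated p53+/- minus untreated and -0.0336 to 0.0117 between the treated groups, with a change of sign without mouse 663, 266, 280 or 309 (0.00951, 0.0117, 0.00594 and 0.00057). Lymphomas with a whole-chromosome fall numbered 1 with 5 Mb bins and 8 with no centring of TMM values, against 17. Members called between lymphoma groups numbered 2 with DESeq2 (treated against untreated p53-/-: Ptpn6 -0.95 and Nup210 -0.76) and 1 with no sex covariate (treated p53+/- against untreated: AI854703, -3.23, adjusted p = 0.0326, beside 0.128% of all genes), against 0 with edgeR and the covariate. No paired analysis was possible because the labels give no replicate numbers shared across groups; those used here number libraries in accession order. Depth limits genes with few counts and the biopsies of about 1030000 and 3810000 counts.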
